A study of Mus musculus with 9 samples.

Results

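The comparison described here was that of 3 pools of RVO retinas with 3 pools of laser-matched control retinas, which were 6 of the 9 RNAseq samples of the series and were chosen by their labels. It addresses which transcripts of the mouse retina differed with occlusion of the large veins beyond what laser injury with the same dye already did. All mice were C57BL/6J mice of 12 weeks of age, and those of both laser groups had received 200 mg/kg eosin Y, a dye that makes tissue sensitive to light. A laser (50 mW, spot size 50 µm, 2.5 s) was aimed at the large veins to close them in the RVO eyes, whereas the fellow eyes, used as controls, received the laser on areas between large vessels. Retinas were taken at d2, and each sample was a pool of 6 retinas from 6 mice, so that n = 3 counts pools. The RVO and control retinas thus came from the same group of mice, but no source used here says that pools of the same number held the same mice. The 3 untreated pools, from mice without laser treatment, are given only as the level without injury. Each pool mixes whole retinas of 6 mice, so that differences between mice cannot be seen, and in such bulk samples fewer cells of a type and less RNA per cell cannot be told apart.

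A vein occlusion dams the blood in the retina behind it, so that the tissue becomes starved of oxygen, leaks and bleeds. Cells short of oxygen stabilize the hypoxia-inducible factors (HIF), which switch on genes of glucose uptake, glycolysis and vessel growth, among them Vegfa. Injured retina also activates its glia, attracts leukocytes from the blood and can lose neurons. The inner retina, with bipolar, amacrine, horizontal and ganglion cells, is supplied by the retinal vessels, whereas the photoreceptors are fed mainly from the choroid behind the retina.

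Total counts were 21022997 to 28993921 in the RVO pools and 18897218 to 23419497 in the control pools, and 16874 genes had enough counts to be tested. Levels are given as CPM, the counts of a gene per 1000000 counts of its pool, and in groups of 3 values they stand in the order of pools 1, 2 and 3. Log2 fold changes are of RVO over control, from edgeR's quasi-likelihood test, with their standard error (SE) and a Benjamini-Hochberg adjusted p. Genes rose or fell where the adjusted p was under 0.01, and a second, looser count at 0.05 is named as such. At 0.01, 456 genes (2.7%) were higher and 107 (0.634%) lower in RVO. At 0.05, 2956 genes (17.5%) were higher and 2880 (17.1%) lower. The log2 fold change of all tested genes had a median of 0.02 and ran from −1.12 to 0.96 between the 5th and the 95th percentile. All 3 RVO pools were above all 3 control pools in 5166 genes (30.6%) and below them in 3844 (22.8%), and this held for each of the 563 genes that passed 0.01. Counts over the gene lists below are to be read against these shares of all tested genes. Sag, which encodes rod arrestin and marks the tissue as retina, was at 4543 to 4680 CPM in RVO and at 7098 to 7601 CPM in control pools.

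The RVO pools were not alike. RVO pools 1 and 3 lay 42.4 apart by Euclidean distance of log2 CPM over all tested genes, as close as the control pools to each other (41.1 to 43.6), and 86.8 to 110 from the controls. RVO pool 2 lay 60.6 to 73.0 from the controls, 61.0 from RVO pool 3 and 75.1 from RVO pool 1, so that it stood between the groups. In a fit without RVO pool 2, 2901 of the genes tested here were higher and 3300 lower at 0.01. RVO pool 2 was beyond the range of the control pools in the same direction in 2707 (93.3%) of the former and 2892 (87.6%) of the latter, at a median of 0.506 and 0.402 of the log2 shift of the other RVO pools. In most of these genes RVO pool 2 thus lay on the same side as the others, at a median of about 40% to 50% of the distance. RVO pools 1 and 3 were compared with the same control pools to choose these genes. That choice favours a large shift of RVO pools 1 and 3 and the same side for RVO pool 2, so these values are descriptions. In the genes that passed with all 3 pools, RVO pool 2 had a median share of the shift of the other RVO pools of 0.734 for the 456 higher and 0.698 for the 107 lower genes. RVO pool 2 took part in choosing those genes, and the choice favours genes in which it lay near the other RVO pools. These 2 shares are therefore no measure of its response. The count of calls at 0.01 hung on single pools. It was 29 without RVO pool 1, 6257 without RVO pool 2, 1 without control pool 1 and 0 without RVO pool 3, control pool 2 or control pool 3, where 6100, 6916 and 6311 genes had an unadjusted p under 0.05. The direction was kept in all 563 genes in each of these fits, but their lack of overlap all but fixes that outcome in advance. The gene groups below are therefore given with the level in each pool.

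**Figure D1:**
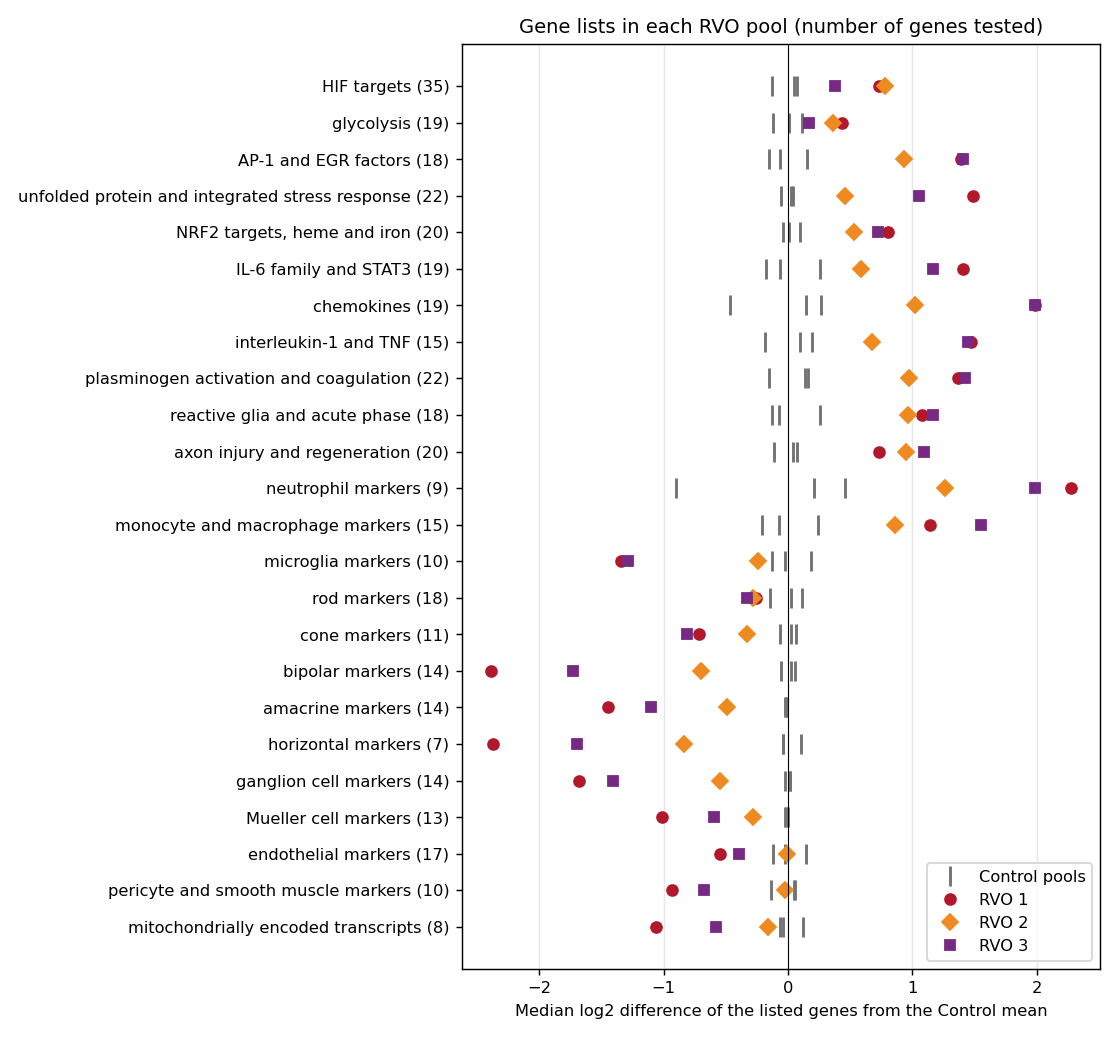
Median log2 difference from the mean of the control pools (x axis) over the tested genes of 24 lists (y axis), for each RVO pool (coloured symbols) and each control pool (grey bars). RVO pool 2 lies nearer to the controls than RVO pools 1 and 3 in most lists, as in the unfolded protein list (0.46 against 1.49 and 1.05), but not in the HIF targets (0.78 against 0.73 and 0.38).

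RNA of tissues next to the retina was present in some pools. The 18 lens markers tested, mostly crystallins, the structural proteins of the lens, summed to 268, 8542 and 803 CPM in RVO and to 4025, 600 and 295 CPM in control pools, against 6.23 to 32.5 CPM in untreated pools. Cryaa, the lens crystallin alpha A, was at 113, 2742 and 216 CPM in RVO and at 1648, 173 and 116 CPM in control pools. High values thus marked RVO pool 2 and control pool 1, and none of the 18 lens genes tested passed 0.05. The 10 genes in which RVO pool 2 lay farthest above the other RVO pools were Mip, Lctl, Lgsn, Cryba1, Grifin, Cryaa, Crygs, Cryba2, Bfsp2 and Crybb2, of which 7 are on the lens list. RVO pool 2 also had the highest level of the melanocyte genes Tyrp1 (23.1, 79.9 and 28.7 CPM) and Pmel (18.6, 67.1 and 24.4 CPM) among the RVO pools, and of the smooth muscle gene Myh11 (2.03, 11.1 and 2.57 CPM). The part of this RNA in the results was not tested. With RVO pool 2 and control pool 1 both left out, 2129 genes were higher and 2719 lower at 0.01, and 562 of the 563 genes passed again. The 10 genes in which RVO pool 2 lay farthest below the other RVO pools were Cxcl2, Cxcl3, Derl3, Fosl1, Hmga2, Slfn4, Fkbp11, S100a9, Il1rn and Mx2.

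**Figure D2:**
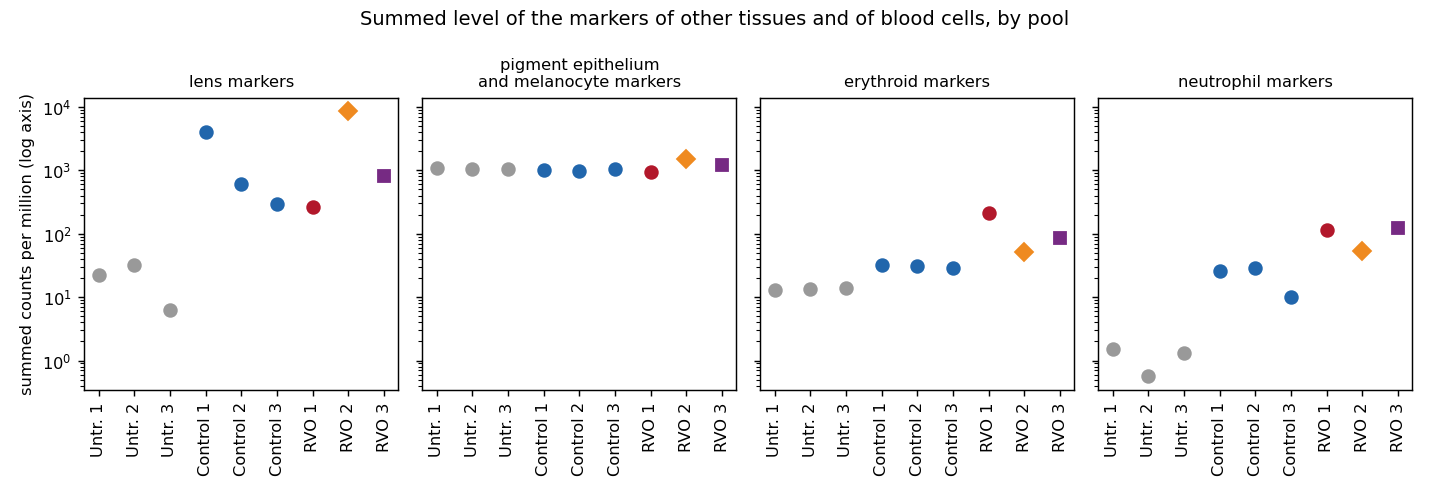
Summed level of the tested lens, pigment epithelium and melanocyte, erythroid and neutrophil markers in each of the 9 pools (y axis, summed CPM, log axis). Lens RNA is highest in RVO pool 2 and control pool 1 (8542 and 4025 CPM), whereas erythroid and neutrophil RNA is higher in all 3 RVO pools than in any control pool.

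Hypoxia genes were higher in RVO, and over the list RVO pool 2 was not behind. Of 35 HIF targets, 12 rose at 0.01, against 2.7% of all tested genes, and none fell, and at 0.05 the counts were 21 and 2. Their median log2 fold change was 0.58, and their median shift from the control mean was 0.73, 0.78 and 0.38 in RVO pools 1, 2 and 3. RVO pool 3 was the lowest of the RVO pools in 23 of the 35 genes and RVO pool 2 in 10, whereas over all tested genes RVO pool 3 was lowest in 3578 and RVO pool 2 in 7647. Among the 12 that rose at 0.01, RVO pool 2 was the lowest in 6, Car9 and Adm included, and RVO pool 3 in the other 6. Car9, the cell-surface carbonic anhydrase IX that removes acid from hypoxic cells, was at 11.6, 6.1 and 8.18 CPM in RVO and at 0.7, 0.794 and 0.598 CPM in control pools. Its log2 fold change of 3.58 (SE 0.29, edgeR adjusted p = 0.00455), or 11.9-fold higher, was among the largest of all genes that passed. Adm, which encodes the vasodilator adrenomedullin, was at 40.5, 24.1 and 26.9 CPM in RVO and at 3.78, 2.38 and 4.18 CPM in control pools (log2 fold change 3.08, SE 0.27, edgeR adjusted p = 0.00459). Adm lies on chr7:110627661-110629820 and Car9 on chr4:43506966-43513729 (GRCm38, both on the plus strand), and their means in untreated retinas were 0.794 and 0.0774 CPM.

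The promoters of 3 of the HIF targets that rose at 0.01 are shown because HIF is known to bind a short core, spelled ACGTG or GCGTG. They are the 250 bases before the RefSeq start of the gene on GRCm38.p6, 5′ to 3′ on the strand of the gene, and hold no annotated exon. Capitals mark the core, or CACGT or CACGC where it lies on the other strand.
Adm, chr7:110627407-110627656, plus strand: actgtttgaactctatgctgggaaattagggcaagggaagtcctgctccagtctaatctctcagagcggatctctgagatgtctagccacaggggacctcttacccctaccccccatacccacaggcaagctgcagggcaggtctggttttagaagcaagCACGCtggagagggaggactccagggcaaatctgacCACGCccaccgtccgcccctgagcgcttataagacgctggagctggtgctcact
Egln3, chr12:54203875-54204124, minus strand: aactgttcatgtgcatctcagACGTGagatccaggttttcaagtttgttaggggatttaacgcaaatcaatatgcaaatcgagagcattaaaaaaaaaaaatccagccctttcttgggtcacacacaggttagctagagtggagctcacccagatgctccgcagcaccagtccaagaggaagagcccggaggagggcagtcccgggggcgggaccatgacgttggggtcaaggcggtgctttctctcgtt
P4ha1, chr10:59323046-59323295, plus strand: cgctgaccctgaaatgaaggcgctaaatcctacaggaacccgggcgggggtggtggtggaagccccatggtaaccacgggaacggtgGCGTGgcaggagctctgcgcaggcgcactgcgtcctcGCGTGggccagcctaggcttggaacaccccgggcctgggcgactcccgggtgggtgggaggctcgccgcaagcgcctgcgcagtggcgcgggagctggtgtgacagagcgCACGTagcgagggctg
The core begins 90 and 54 bases before the start in Adm, 229 bases before it in Egln3 and 163, 126 and 16 bases before it in P4ha1. Of the 9 HIF targets that rose at 0.01 and had a promoter entry, 8 held it in at least 1 window, Apln being the exception. Vegfa has 2 windows, and the core is absent from the one before the start of the whole gene. It lies in a window inside the gene, of which 218 bases are in annotated exons. Of all 26 listed HIF targets with an entry 23 (88.5%) held the core in at least 1 window. The core is common, since 58.8% of the tested genes with an entry and 38.6% of all 32851 promoter windows hold it. A match describes these letters and is not a site of binding.

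Ndufa4l2, a mitochondrial protein that lowers the activity of complex I in hypoxia, was at 25.9, 22.2 and 12.7 CPM in RVO and at 2.98, 3.12 and 4.4 CPM in control pools (5.58-fold). Egln3, a prolyl hydroxylase that marks HIF for degradation and is itself induced by it, was at 53.1, 31.3 and 25.8 CPM against 8.25, 6.88 and 8.37 CPM (4.52-fold). Slc2a1, the glucose transporter GLUT1, was at 677, 636 and 491 CPM against 304, 276 and 295 CPM (1.99-fold). In these genes RVO pool 3, not RVO pool 2, was nearest to the controls. The other HIF targets that rose were Apln, Stc2, Plin2, Angptl4, Vegfa, Loxl2 and P4ha1, with folds from 1.59 (P4ha1, a collagen prolyl hydroxylase) to 4.69 (Apln, the ligand of the apelin receptor). Of those that rose at 0.05 only, Ero1l, an oxidase of the endoplasmic reticulum, was at 91.2, 88.4 and 47.5 CPM in RVO and at 30.9, 25.2 and 30.2 CPM in control pools. Bnip3, a mitophagy receptor, was at 45.6, 47.3 and 30.6 CPM against 27, 22.4 and 26.9 CPM, and Ddit4, an inhibitor of mTOR signalling, at 201, 217 and 148 CPM against 125, 106 and 134 CPM. The pair that fell at 0.05 was Vldlr, a lipoprotein receptor (log2 fold change −0.28), and Nrn1, a growth factor of neurons (−0.79).

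The transcripts of the main HIF alpha subunits did not pass 0.05. Hif1a, the HIF-1 alpha subunit, was at 495, 574 and 517 CPM in RVO and at 637, 626 and 556 CPM in control pools, and Epas1, the HIF-2 alpha subunit, at 200, 238 and 210 CPM against 241, 243 and 220 CPM. The groups overlapped in both. Among 10 genes of HIF subunits and hydroxylases, Egln3 rose at 0.01, and Egln1, Egln2 and Vhl rose and Hif3a fell at 0.05.

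Of 19 glycolytic genes none passed 0.01, with a median log2 fold change of 0.27. At 0.05, 7 rose (36.8%) and 3 fell (15.8%), against 17.5% and 17.1% of all tested genes. The share that fell was thus near that of all genes. Slc16a3, the lactate exporter MCT4, was at 127, 124 and 76.2 CPM in RVO and at 63.6, 46.9 and 66 CPM in control pools (log2 fold change 0.84, SE 0.22). Ldha, lactate dehydrogenase A, was at 1384, 1150 and 1249 CPM against 904, 819 and 969 CPM. RVO pool 3 was the lowest RVO pool in 14 of the 19 genes. The 3 that fell were Ldhb, Aldoc and Pfkm, with log2 fold changes of −0.69, −0.74 and −0.76. Pgk1, Gapdh and Pgam1 had low levels (30.3 to 40.7 CPM, 19.8 to 25.5 CPM and 23.6 to 29.5 CPM in RVO). Each has many pseudogenes, and how reads matching several places were counted is not given in the sources used here, so their values are uncertain.

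Of 26 nuclear genes of the respiratory chain, 1 rose at 0.01, against 2.7% of all tested genes, and the median log2 fold change was 0.00. With Sdhb, 2 rose at 0.05 (7.69%), against 17.5% of all tested genes. The gene that rose at 0.01 was Cox4i2, the isoform of cytochrome oxidase subunit 4 that replaces Cox4i1 at low oxygen, at 61.2, 49.4 and 52.3 CPM in RVO and at 28.5, 31.1 and 32.6 CPM in control pools (1.71-fold, edgeR adjusted p = 0.00758). Of 8 tested transcripts of the mitochondrial genome none passed 0.01 and 2 fell at 0.05 (25%), against 17.1% of all tested genes. The 2 were mt-Nd4 and mt-Nd6, which encode subunits of complex I. Mt-Nd4 was at 1635, 2570 and 2056 CPM in RVO and at 2887, 3257 and 2988 CPM in control pools. The order RVO pool 1, 3, 2 from lowest to highest held in all 8 transcripts.

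Vegfa was higher in RVO, while the genes of vessel growth around it passed 0.05 about as often as all genes. Vegfa (chr17:46016993-46032369, minus strand), the main angiogenic factor, was at 440, 330 and 277 CPM in RVO and at 153, 131 and 173 CPM in control pools, and untreated retinas had 139 to 143 CPM, within the control range (log2 fold change RVO over control 1.14, SE 0.18, edgeR adjusted p = 0.00989). Of 22 genes of the VEGF, angiopoietin and apelin systems, only Adm, Apln and Vegfa rose at 0.01, and 5 rose and 3 fell at 0.05, against 17.5% and 17.1% of all tested genes, with a median of 0.01. At 0.05 the ligand Pgf rose from 4.85, 4.29 and 5.29 CPM in control to 12.8, 8.51 and 10.2 CPM in RVO, and Esm1, a proteoglycan of sprouting endothelium, rose to 7.42, 2.54 and 6.61 CPM from 1.77, 1.53 and 0.384 CPM. Among the receptors, Kdr, the VEGF receptor 2, was at 109, 212 and 153 CPM in RVO against 247, 277 and 262 CPM in control pools (log2 fold change −0.77, edgeR adjusted p = 0.0318), and Tek and Tie1, the receptors of the angiopoietins, fell at 0.05 by 1.15 and 0.90 on the log2 scale. Flt1, the VEGF receptor 1, was at 94.3, 113 and 106 CPM against 111, 123 and 109 CPM and did not pass.

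Of 17 endothelial markers none passed 0.01, while 7 fell (41.2%) and 2 rose (11.8%) at 0.05, against 17.1% and 17.5% of all tested genes. Their median log2 fold change was −0.56, or −0.32 without control pool 2. Cldn5, a claudin of the tight junctions that form the blood-retina barrier, was at 3, 9.44 and 5.09 CPM in RVO and at 13.5, 20.6 and 14.7 CPM in control pools. Vwf, von Willebrand factor, was at 6.17, 17.7 and 9.66 CPM against 25.1, 28.4 and 22.7 CPM. In untreated retinas their means were 4.02 and 2.95 CPM. The 2 endothelial markers that rose at 0.05 were Mfsd2a and Egfl7. Relative to the control mean, Mfsd2a was at 2.27, 1.272 and 1.722 in RVO pools 1, 2 and 3, and Egfl7 at 1.643, 1.465 and 1.27. In contrast, the junction proteins Pecam1 (18, 16.2 and 18.1 CPM against 16.4, 17.8 and 14 CPM) and Cdh5 (10.6, 11 and 11.3 CPM against 10.4, 10.3 and 9.35 CPM) did not pass 0.05. The 10 pericyte and smooth muscle markers had a median of −0.55, or −0.90 without RVO pool 2. At 0.05, 40% of them fell and 20% rose, against 17.1% and 17.5% of all tested genes. The share that rose was thus near that of all genes. Of the 10, the potassium channel subunits Kcnj8 and Abcc9 and the pericyte genes Rgs5 and Pdgfrb fell at 0.05, by 0.75 (Pdgfrb) to 1.77 (Abcc9) on the log2 scale. The contractile genes Acta2 (26.9, 63.3 and 48.9 CPM against 20.9, 15.5 and 9.1 CPM) and Tagln rose at 0.05. Sox17, a transcription factor of arterial endothelium, fell at 0.01, from 2.47, 2.54 and 2.18 CPM in control to 0.655, 1.11 and 0.666 CPM in RVO (3.05-fold lower), a level below that in untreated retinas (1.05 to 1.25 CPM) in 2 of the 3 pools.

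Genes of plasminogen activation and coagulation, which govern how clots form and dissolve, were higher in RVO. Of 22 tested, 8 rose at 0.01, against 2.7% of all tested genes (median log2 fold change 1.23). At 0.05, 15 rose (68.2%) and 1 fell (4.55%), against 17.5% and 17.1% of all tested genes. Plaur, the receptor that holds urokinase on the cell surface, was at 38.4, 10.7 and 24.6 CPM in RVO and at 3.5, 3.7 and 2.56 CPM in control pools (7.31-fold, edgeR adjusted p = 0.00977). Plat, the tissue plasminogen activator, rose 2.62-fold, F3, tissue factor, the starter of coagulation, 2.68-fold, and Procr, the receptor of protein C, 3.17-fold. The plasmin receptor subunits Anxa2 and S100a10 rose 2.47-fold and 2.14-fold, and F13a1, the subunit of factor XIII that also marks macrophages, 2.86-fold. Vwf was the one gene of the list that fell at 0.05. Plg, Tfpi2, Fga, Fgb, Fgg and Serpinc1 had too few counts to be tested. Of the matrix proteases, Mmp3 (11, 9.76 and 15.6 CPM against 2.56, 2.65 and 1.84 CPM) and the macrophage elastase Mmp12 (6.69, 7.26 and 6.52 CPM against 1.82, 2.33 and 1.58 CPM) rose at 0.01.

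**Figure D3:**
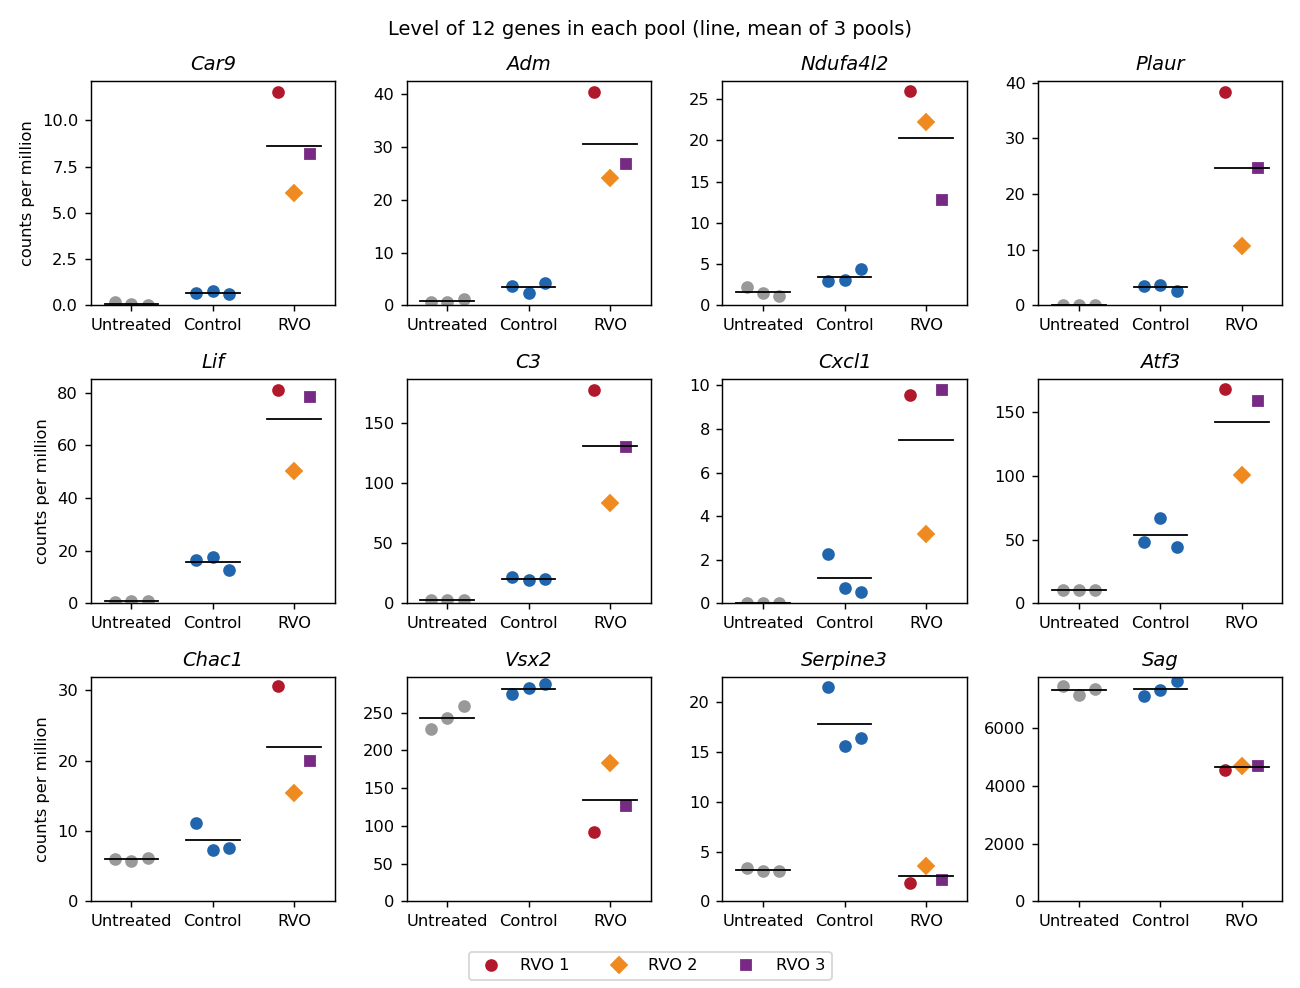
Level of 12 genes in each pool (y axis, CPM, starting at 0) in untreated, control and RVO retinas, with the mean of 3 pools as a line. The RVO pools lie apart from the control pools in each of the 12 genes, with RVO pool 2 nearest to the controls in 8 of the 9 that are higher and, for Ndufa4l2, RVO pool 3.

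Chemokines were higher in RVO, with wide gaps between pools. The chemokine list had a median log2 fold change of 1.77. Of its 19 genes, 4 rose at 0.01 (Pf4, Ccl4, Ccl6 and Ccl9). At 0.05, 15 rose (78.9%) and 2 fell (10.5%), against 17.5% and 17.1% of all tested genes. Ccl2, which attracts monocytes, was at 25.7, 17.3 and 27.8 CPM in RVO and at 8.25, 7.73 and 3.07 CPM in control pools. Cxcl2, which attracts neutrophils, was at 28.6, 4.81 and 22.1 CPM against 5.22, 1.96 and 0.811 CPM, so that RVO pool 2 was below control pool 1. Cxcl3 overlapped in the same way, and these genes are close relatives whose reads may be shared. RVO pool 2 was the lowest RVO pool in 15 of the 19 genes. Cx3cl1, the neuronal ligand of a microglial receptor, and Cxcl16 fell at 0.05, Cx3cl1 from 124, 132 and 123 CPM to 43, 86.6 and 54.8 CPM.

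The IL-6 family uses a shared receptor chain and STAT3 to switch on repair and acute phase genes. Of 19 tested genes, 4 rose at 0.01, against 2.7% of all tested genes. At 0.05, 14 rose (73.7%) and 1 fell (5.26%), against 17.5% and 17.1% of all tested genes. Lif, which glia of the injured retina secrete and which protects photoreceptors, was at 81.2, 50.2 and 78.3 CPM in RVO and at 16.3, 17.8 and 12.8 CPM in control pools (4.32-fold, edgeR adjusted p = 0.00564). The cytokine Clcf1 rose 2.93-fold, and Cebpd, a transcription factor downstream of STAT3, 2.50-fold. Stat3 itself and its feedback inhibitor Socs3 rose at 0.05, by 0.74 and 1.25 on the log2 scale. Il6 was below 1 CPM in all 6 pools. In the interleukin-1 and TNF list 3 of 15 genes rose at 0.01, and the largest of these was Tnfrsf12a, the receptor of the cytokine TWEAK, at 178, 61.3 and 148 CPM against 28.2, 28.2 and 22.7 CPM (4.72-fold). Tnfrsf1b, the TNF receptor 2, and Nfkbia, the inhibitor of NF-kB, were the others. At 0.05, 11 rose (73.3%) and 1 fell (6.67%), which was Tnfaip3, against 17.5% and 17.1% of all tested genes.

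Markers of blood leukocytes were higher in RVO, and their part in the levels of chemokines, plasminogen genes and cytokines, which leukocytes also make, was not tested. The neutrophil markers that could be tested summed to 53.4 to 121 CPM in RVO, to 9.95 to 28.4 CPM in control and to 0.565 to 1.54 CPM in untreated pools. All 9 neutrophil markers tested rose at 0.05, with none at 0.01 and a median log2 fold change of 2.05. S100a8, a calcium-binding protein abundant in neutrophils, was at 31.7, 14.8 and 36.3 CPM in RVO and at 6.39, 5.56 and 1.79 CPM in control pools. The granule genes Mpo, Elane, Camp and Ngp and the markers Ly6g and Retnlg had too few counts to be tested. Of 15 monocyte and macrophage markers, 5 rose at 0.01 (Arg1, Lgals3, F13a1, Cd68 and Lyz2), and 11 rose at 0.05. Over all tested genes these shares were 2.7% and 17.5%. Lgals3, galectin 3 of phagocytes and reactive glia, was at 215, 162 and 190 CPM against 43.1, 64.1 and 48.7 CPM (3.51-fold, edgeR adjusted p = 0.00459). Arg1, arginase 1 of repair macrophages, was at 49.6, 24.8 and 50.2 CPM against 7.37, 9.79 and 12.3 CPM. Microglia markers went the other way. Of 10, none passed 0.01 and 5 fell at 0.05, against 17.1% of all tested genes (median log2 fold change −0.93, or −1.45 without RVO pool 2). Among the 5 was P2ry12, the purine receptor of resting microglia. P2ry12 was at 0.586, 1.34 and 0.666 CPM in RVO, 2.61, 2.54 and 2.39 CPM in control and 12.9 to 24.3 CPM in untreated pools. Of 10 T, B and NK cell markers, 1 had enough counts to be tested, and it did not pass.

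RNA of red blood cells, which carry globin transcripts when young, was higher in RVO as well. Hbb-bs, an adult beta globin, was at 147, 37.1 and 59 CPM in RVO, at 18.5, 19.5 and 17.5 CPM in control pools and at a mean of 6.16 CPM in untreated pools. The pools did not overlap, and RVO pool 1 stood above the others. Of 5 erythroid genes tested, 3 rose at 0.05 (Hbb-bs, Hba-a1 and Hba-a2), and the median log2 fold change of 1.72 was 0.81 without RVO pool 1. The globin genes are near-identical copies and share reads, so that their separate values are uncertain. Of the platelet genes, Pf4, which monocytes also express, rose at 0.01, to 7.76, 4.72 and 6.28 CPM from 1.82, 1.59 and 0.982 CPM. Hmox1, the enzyme that degrades heme, was at 842, 447 and 536 CPM in RVO and at 116, 68.4 and 23.6 CPM in control pools. Its log2 fold change of 3.08 (SE 0.54) had an edgeR adjusted p of 0.0112, and the control pools differed widely among themselves. Of 20 genes of NRF2 targets, heme and iron, 4 rose at 0.01, namely Akr1b8, Slc7a11, Ftl1 and Gclm. At 0.05, 14 rose (70%) and 1 fell (5%), against 17.5% and 17.1% of all tested genes. Slc7a11, the cystine importer that feeds glutathione synthesis, was at 60.6, 48.2 and 56 CPM against 18.3, 15 and 9.61 CPM. Nqo1, a classical NRF2 target, was at 5.62, 6.33 and 4.9 CPM against 5.88, 4.87 and 5.76 CPM, and the groups overlapped.

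Reactive glia and acute phase genes rose in 6 of 18 at 0.01 and in 15 at 0.05, against 2.7% and 17.5% of all tested genes. None fell (median log2 fold change 1.06). C3, the central complement component, was at 178, 83.4 and 130 CPM in RVO and at 21.7, 19.8 and 20.6 CPM in control pools (6.07-fold, edgeR adjusted p = 0.00566). Chil1, a secreted chitinase-like protein of reactive glia, was at 850, 489 and 622 CPM against 131, 148 and 131 CPM (4.60-fold), and Nes, the intermediate filament nestin, at 224, 129 and 187 CPM against 50.3, 58.2 and 50.6 CPM (3.28-fold). Gfap, the filament by which reactive glia are best known, was not among them. It was at 172, 269 and 243 CPM in RVO, at 225, 375 and 312 CPM in control and at 18.7 to 19.1 CPM in untreated pools, and RVO and control overlapped (log2 fold change −0.46, edgeR adjusted p = 0.134). A2m, a broad protease inhibitor, and Serpina3n, a serine protease inhibitor of reactive astrocytes, were highest in RVO pool 2, Serpina3n with 608, 1050 and 711 CPM against 338, 327 and 229 CPM. Of 17 complement genes, C3 and C1ra rose at 0.01, whereas C1qa, C1qb and C1qc, which microglia make, had log2 fold changes of −0.26, −0.28 and −0.52 and did not pass 0.05.

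Mueller cells are the glia that span the retina. Of 13 Mueller cell markers, 9 fell (69.2%) and 1 rose (7.69%) at 0.05, against 17.1% and 17.5% of all tested genes. None passed 0.01 (median log2 fold change −0.69). Aqp4 and Kcnj10, the water and potassium channels of their endfeet, were at 42.6, 97.8 and 63.6 CPM and 57.7, 128 and 93.9 CPM in RVO against 125, 114 and 111 CPM and 144, 201 and 146 CPM in control pools. Glul, glutamine synthetase, was at 628, 785 and 678 CPM against 1406, 922 and 1550 CPM. Rlbp1, the retinaldehyde-binding protein, was at 421, 452 and 467 CPM against 406, 402 and 451 CPM and did not pass. Sox9, a transcription factor of Mueller cells and progenitors, was the gene that rose. Of the 5 astrocyte markers none passed 0.05.

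AP-1 and EGR factors, which cells switch on within hours of a stimulus, were higher in RVO. Of 18, 11 rose at 0.01 and 17 at 0.05, against 2.7% and 17.5% of all tested genes (median log2 fold change 1.22). Myc was at 65.9, 21.4 and 49.2 CPM in RVO and at 8.11, 8.36 and 6.02 CPM in control pools (5.87-fold). Atf3, which marks injured neurons, was at 168, 101 and 159 CPM against 48.5, 67.4 and 44 CPM (2.59-fold), and Junb and Jun rose 3.46-fold and 2.42-fold. Fosl1 missed 0.01, at 139, 27.6 and 101 CPM against 16.1, 9.26 and 9.74 CPM (edgeR adjusted p = 0.013). RVO pool 2 was the lowest RVO pool in 17 of the 18 genes, the exception being Fos (86.7, 97.7 and 92.9 CPM against 48.7, 69 and 52 CPM). Of 20 genes of axon injury and regeneration 9 rose at 0.01, among them Ecel1, a peptidase induced in injured neurons, at 16, 12.6 and 13 CPM against 2.8, 2.28 and 1.49 CPM (6.14-fold, edgeR adjusted p = 0.00459). The tubulins Tubb6 and Tuba1c rose 4.11-fold and 4.87-fold. The neuronal tubulin Tubb3 and Stmn2, a regulator of axonal microtubules, fell at 0.05.

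The unfolded protein and integrated stress response, by which cells cope with misfolded protein in the endoplasmic reticulum, followed the difference between pools in every gene. All 22 genes had the 3 RVO pools above the 3 control pools, against 30.6% of all tested genes. In all 22 the RVO pools stood in the order 1, 3, 2 from highest to lowest. Only Stc2, a secreted hormone-like protein, rose at 0.01, and 21 of the 22 rose at 0.05 (median log2 fold change 1.00). Over all tested genes these shares were 2.7% and 17.5%. The count at 0.01 was 20 with the DESeq2 Wald test or without the filter on low counts and 0 with DESeq2 size factors, and that at 0.05 was 1, 2 and 0 without RVO pool 3, control pool 1 and control pool 3. Hspa5, the chaperone BiP, was at 1613, 690 and 1117 CPM in RVO and at 447, 460 and 425 CPM in control pools. Derl3, a factor that removes misfolded protein from the endoplasmic reticulum, was at 28.2, 4.72 and 18.9 CPM against 1.68, 1.69 and 1.28 CPM. Ddit3, the stress factor CHOP, was at 227, 113 and 185 CPM against 79.3, 74.3 and 73.4 CPM. The edgeR adjusted p of these 3 was 0.0133, 0.0119 and 0.0127. The median shift of the list was 1.49, 0.46 and 1.05 in RVO pools 1, 2 and 3. Of 17 cell death effectors, 2 rose at 0.01, Bbc3 and Bcl2l11, which encode the BH3-only proteins PUMA and BIM, by 2.29-fold and 1.47-fold. At 0.05, 11 rose (64.7%), among them Mlkl and Ripk3 of necroptosis, and 1 fell (5.88%). Over all tested genes 17.5% rose and 17.1% fell.

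**Figure D4:**
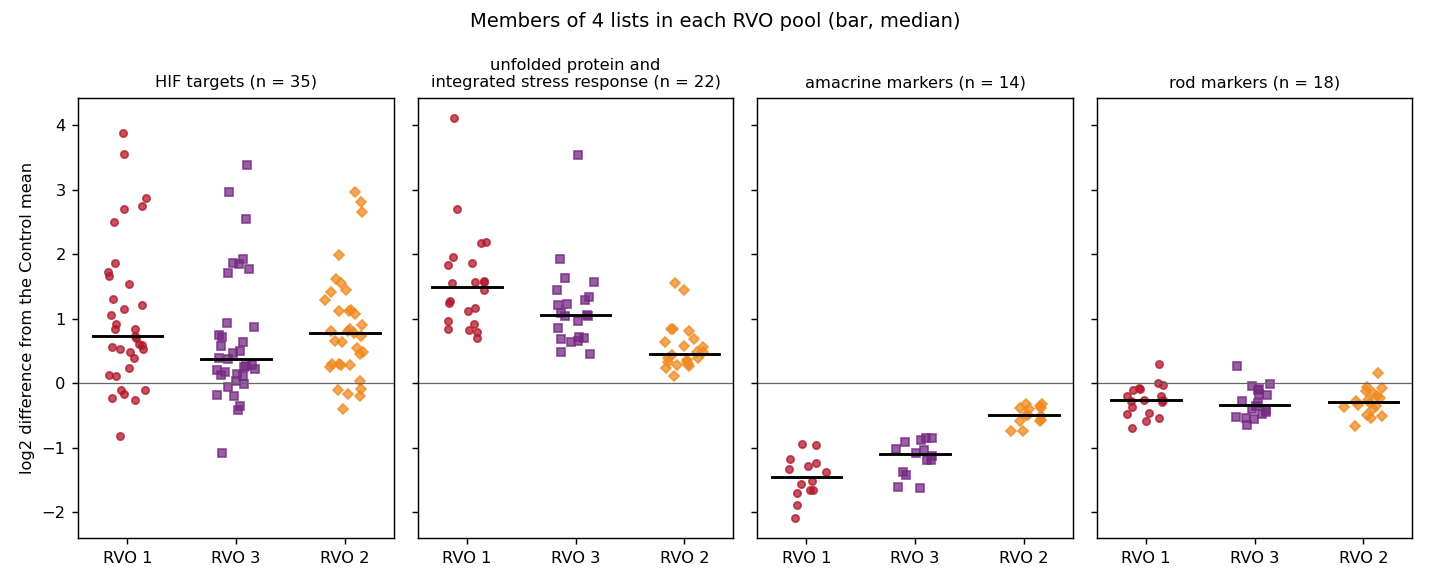
Log2 difference from the control mean (y axis) of each tested gene of 4 lists (points) in RVO pools 1, 3 and 2, with the median as a bar. The unfolded protein and amacrine lists shrink towards 0 in RVO pool 2, the HIF targets have their lowest median in RVO pool 3 (0.38), and the rod markers have medians of −0.26, −0.33 and −0.28.

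Of 17 genes of the p53 and cell cycle list, Cdkn1a, the inhibitor p21 induced by p53, rose 4.54-fold and Ccnd1, cyclin D1 of the first growth phase, 4.09-fold at 0.01. Ccnd1 was at 297, 169 and 286 CPM in RVO and at 59.1, 71.2 and 47.2 CPM in control pools. Mcm2 and Pcna of DNA replication rose at 0.05. The mitosis genes Mki67 (2.66, 5.3 and 1.95 CPM against 3.87, 2.96 and 2.52 CPM), Top2a, Cdk1, Aurkb and Birc5 did not pass 0.05 and were highest in RVO pool 2 among the RVO pools. Of 16 neurogenic and progenitor factors, 2 rose, Neurog2 and Notch1, and 1 fell at 0.01. Neurog2 (chr3:127633135-127635631, plus strand), a proneural factor of the developing retina, had one of the smallest p-values of all genes, with 22.7, 21.4 and 25.5 CPM in RVO and 4.29, 5.5 and 3.89 CPM in control pools (4.93-fold, edgeR adjusted p = 0.00317). Its RVO pools were at like levels, RVO pool 2 included. The 4 other genes with the smallest p-values also had close levels within each group. Choice by smallest p-value favours such close levels, in Neurog2 as well. Slc13a4, a sulfate transporter, was at 39.2, 28.7 and 34.2 CPM against 7.55, 6.19 and 6.36 CPM, and Ier3, an early response gene, at 243, 195 and 221 CPM against 77.1, 79.9 and 83.4 CPM. Neat1, a long noncoding RNA of nuclear paraspeckles, was at 183, 189 and 207 CPM against 88.8, 89 and 76.3 CPM, and Gadd45g, a growth arrest gene, at 50.1, 43.9 and 45.4 CPM against 21.4, 20.9 and 18.5 CPM.

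Markers of the inner retinal neurons were lower in RVO. At 0.05, 12 of 14 bipolar, 14 of 14 amacrine, 7 of 7 horizontal and 13 of 14 ganglion cell markers fell, against 17.1% of all tested genes, and none rose. At 0.01 there were 3, Prkca of rod bipolar cells and Nefh and Pou4f3 of ganglion cells. The 4 lists hold 49 entries, in which Tfap2b counts under both amacrine and horizontal cells. Of these entries, the DESeq2 Wald test called 43 lower at 0.01 and edgeR without the filter 42, but edgeR with DESeq2 size factors 1. At 0.05 the count was 46, and 1, 3 and 0 without RVO pool 3, control pool 1 and control pool 3. The median log2 fold changes were −1.53, −1.01, −1.50 and −1.24. Without RVO pool 2 the medians of the bipolar and horizontal lists were −2.17 and −2.07. Grm6, the glutamate receptor by which ON bipolar cells receive the photoreceptor signal, was at 16.6, 58 and 28.1 CPM in RVO and at 126, 105 and 130 CPM in control pools. Calb2, the calcium-binding protein calretinin of amacrine and ganglion cells, was at 89.6, 198 and 109 CPM against 334, 321 and 343 CPM. Calb1, calbindin of horizontal cells, was at 5.14, 32.7 and 13.8 CPM against 61.5, 63.7 and 68.9 CPM, and Nefl, the light neurofilament of ganglion cells, at 101, 249 and 137 CPM against 396, 392 and 383 CPM. In each of the 4 genes RVO pool 2 stood between the other RVO pools and the controls, and the groups did not overlap. The order RVO pool 1, 3, 2 from lowest to highest held in 14 of 14 amacrine, 7 of 7 horizontal and 13 of 14 bipolar markers. The untreated means were 102 CPM for Grm6, 357 CPM for Calb2, 105 CPM for Calb1 and 407 CPM for Nefl. Trpm1 of the bipolar and Opn4 of the ganglion cell list missed 0.05, and Lrit3, a synaptic protein of ON bipolar cells, had a positive log2 fold change of 0.28 and did not pass.

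Of 18 rod markers, 2 fell at 0.01 and 11 at 0.05, against 0.634% and 17.1% of all tested genes (median log2 fold change −0.35). The median shifts of the rod markers were −0.26, −0.28 and −0.33 in RVO pools 1, 2 and 3. Sag, rod arrestin, which ends the light signal, was at 4543, 4662 and 4680 CPM in RVO and at 7098, 7317 and 7601 CPM in control pools (1.64-fold lower, edgeR adjusted p = 0.00566), and Pde6b, a subunit of the rod phosphodiesterase, fell 1.49-fold. The RVO pools lay close together in both genes. Of 11 cone markers 6 (54.5%) fell at 0.05, against 17.1% of all tested genes, and none at 0.01. Opn1sw, the short-wavelength cone opsin, was at 139, 227 and 98.2 CPM against 428, 330 and 446 CPM, and Arr3, cone arrestin, at 52.5, 85.4 and 43.6 CPM against 171, 108 and 190 CPM.

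**Figure D5:**
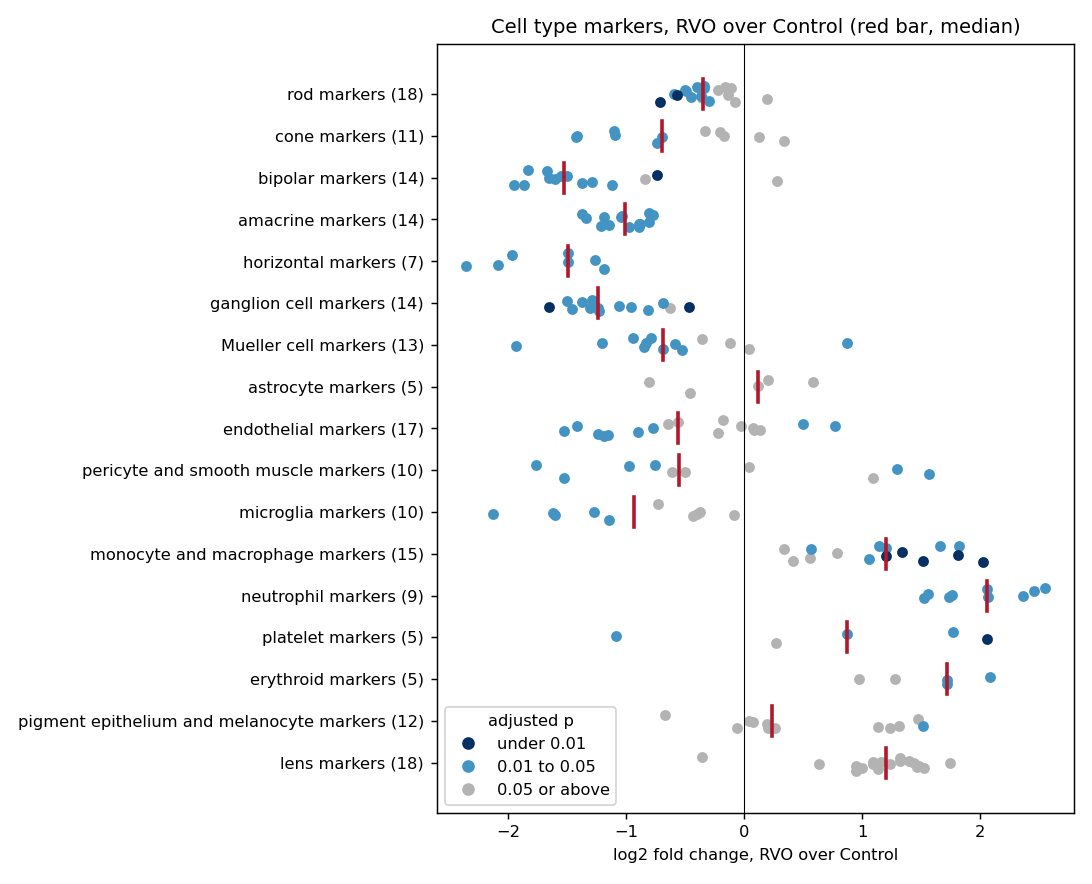
Log2 fold change of RVO over control (x axis) of each tested marker (points, coloured by adjusted p) of 17 cell types and tissues (y axis), with the median as a red bar. Amacrine and horizontal markers all lie below 0 and neutrophil markers all above it, with medians of −1.01, −1.50 and 2.05.

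The genes that fell most were not neuronal markers alone. Serpine3, a gene of the serpin family (chr14:62663667-62692243, plus strand), fell 7.39-fold (edgeR adjusted p = 0.00564), from 21.5, 15.6 and 16.4 CPM in control to 1.83, 3.56 and 2.14 CPM in RVO, and untreated retinas had 3.04 to 3.31 CPM. The control pools were thus the highest of the 9. Etnppl, an enzyme of phospholipid breakdown in astroglia, fell 3.17-fold to 3.52, 4.86 and 3.52 CPM, from 13.8, 10.2 and 12.3 CPM in control and 36.8 to 41 CPM in untreated retinas. Pou4f3, Kcnmb2, Hydin, Pgc, Pcdha2 and Cpne7 fell 2.68-fold (Cpne7) to 3.88-fold (Kcnmb2), and the noncoding RNAs Gm20754, BC055402, B930025P03Rik and Mir670hg 2.81-fold to 5.23-fold. Fam188b2-ps, a pseudogene by its name, fell 3.85-fold. Of these genes, Gm20754, Kcnmb2, B930025P03Rik, Hydin and Pcdha2 had under 1 CPM in each RVO pool. Of the 107 genes that fell, control pools were above the untreated pools without overlap in 41 and below them in 38. Of the 456 that rose, control pools were above the untreated pools in 403 and below them in 8. Over all tested genes control pools were above the untreated pools in 46.7% and below them in 22%. Csn3, kappa casein, had the largest fold among genes that rose and had at least 1 CPM in RVO, 12.1-fold, with 8.17, 4.14 and 5.61 CPM in RVO and 0.326, 0.794 and 0.342 CPM in control pools. Other large folds were those of Car6, a secreted carbonic anhydrase (6.85-fold), Mylk2, a myosin light chain kinase (6.63-fold), Slpi, a protease inhibitor of mucosae and macrophages (5.95-fold), Adamts14, a procollagen protease (5.95-fold), the pseudogene H2-T-ps (6.95-fold) and Hsd17b2, which inactivates sex steroids (5.39-fold). Hsd17b2 was at 59, 35.9 and 53.2 CPM against 7.6, 9.74 and 9.18 CPM, and 0.861 CPM in untreated retinas.

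Interferon-stimulated genes gave few calls. Of 20 interferon-stimulated genes, 1, Irf9, passed 0.05, whereas 17.5% of all tested genes were higher and 17.1% lower. All 20 overlapped between the groups, whereas over all tested genes the RVO pools lay above the control pools in 30.6% and below them in 22.8%. The median log2 fold change of the 20 genes was 0.50, and 0.23 without control pool 1 or without RVO pool 1. Bst2, which tethers budding viruses, was at 134, 49.8 and 103 CPM in RVO and at 27.9, 57.2 and 45.9 CPM in control pools. Of 16 genes of cholesterol synthesis, 7 fell at 0.05, against 17.1% of all tested genes, and none at 0.01 (median −0.17). Of 15 clock genes, 7 fell (46.7%) and 2 rose (13.3%) at 0.05, against 17.1% and 17.5% of all tested genes, with none at 0.01. Of 13 genes of endothelins and vascular tone, 4 rose and 4 fell at 0.05 (30.8% each), with none at 0.01. Over all tested genes these shares at 0.05 were 17.5% and 17.1%. Edn2, an endothelin that photoreceptors release when injured, was at 195, 139 and 182 CPM against 79.8, 127 and 93.3 CPM and at 2.05 CPM in untreated retinas, and Nos1, the neuronal nitric oxide synthase, was at 6.66, 10.8 and 6.75 CPM against 14.4, 14.9 and 16.2 CPM. Of 20 growth factor genes, Hbegf, an EGF receptor ligand, rose 5.16-fold, to 142, 45.7 and 102 CPM from 21.9, 16.5 and 15.8 CPM, and Tgfb1 1.84-fold at 0.01. At 0.05, 11 of the 20 rose (55%) and 4 fell (20%), against 17.5% and 17.1% of all tested genes. The share that fell was thus near that of all genes. The 4 were Bdnf, Igf1, Igf2 and Fgf1. Of 12 pigment epithelium and melanocyte markers, 1, Mlana, passed 0.05, and its highest value was in RVO pool 2 (7.66, 22.6 and 9.32 CPM).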

How the data were processed

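Whole retinas at d2 were studied by RNAseq, as 3 pools for each of RVO, control and untreated eyes. The authors deposited 1 table of raw counts per gene. Per the study's methods, reads of TruSeq Stranded mRNA libraries were aligned with STAR (version 2.5.2b, as in the submitters' processing notes) to GRCm38 and counted with featureCounts of Subread 1.5.1 on GENCODE vM11, while the strand setting and the treatment of reads matching several places are not given in the sources used here. The table held 48679 names, including 92 spike-in names with no count.

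The RVO and control pools were compared with edgeR 4.0.16 (R 4.3.3), using its filter on low counts, TMM scaling and the quasi-likelihood test with Benjamini-Hochberg adjustment, at 0.01 and 0.05. The study's own test, DESeq2 (version 1.42.0 here), was an alternative. CPM are counts per 1000000 counts of a pool's total. Shifts of lists are medians of log2(CPM + 0.1) minus the control mean. Total counts of 12377572 to 28993921 limit what can be seen of genes under about 1 CPM. The p-values measure the spread between pools. Coordinates are those of GENCODE vM21 on GRCm38, which matched 46372 names. The fitting steps were tested on simulated data. Some genes of the lists are counted but not reported here by name.

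The 676 genes of 43 lists were chosen with earlier results of these data known, so the counts over lists are descriptions. Outside the lists, the text names the 15 genes of largest fold in each direction among those past 0.01 with at least 1 CPM in the higher group, the 10 genes farthest above and below the other RVO pools in RVO pool 2 among those of at least 5 CPM, and the 5 smallest p-values. Alternatives were other scalings, filters and tests, all 9 pools in one fit, a block on the pool number, leaving out each pool, and leaving out both pools with the most lens RNA, the last chosen after seeing the data. The functional sets of the closing observations were also chosen after their values were seen.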

Additional observations from a re-analysis of the deposited data

How the results depend on the processing

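Each of the 563 genes past 0.01 kept its direction under every alternative in which it was tested (556 with at least 1 CPM in 3 samples, 563 in the others). Since the groups overlapped in none of these genes, the direction could hardly change, and its stability says little about the calls. The counts did not keep their size. Against 456 higher and 107 lower genes at 0.01, scaling by library size alone gave 690 and 202, no filter on low counts 1569 and 1740, the DESeq2 Wald test 1877 and 2161, all 9 pools in one fit 1832 and 2021, and leaving out both pools with lens RNA 2129 and 2719. At least 1 CPM in 3 samples left 53 lower genes, and DESeq2 size factors gave 324 and 76. Genes higher in RVO were 81% of the calls with DESeq2 size factors, but 47.4% without the filter, 46.5% with the DESeq2 Wald test, 47.5% with all 9 pools and 43.9% without the pools with lens RNA, so the excess of higher genes at 0.01 depends on these settings. Leaving out 1 pool at a time gave 0 to 2942 higher and 0 to 3315 lower genes at 0.01, and 56 to 4288 higher and 6 to 4491 lower at 0.05, the lowest at 0.05 without control pool 3 and the highest without RVO pool 2.

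Whether pools of the same number held the same mice is not given, and the pools were not treated as pairs. The deviations of pools with the same number from their group mean correlated at −0.126, −0.143 and 0.0749. With 3 pools a group, the deviations from a mean depend on each other, so these values cannot decide whether the pools were pairs. With the number as a block, edgeR called 0 genes higher and 0 lower at 0.01, 1984 and 2219 at 0.05, and 7227 at an unadjusted p under 0.05. List counts at 0.01 moved with these totals, as in the AP-1 and EGR list (11 of 18, but 15 of 19 with the DESeq2 Wald test or without the filter). The median log2 fold change of the vessel growth list turned to −0.07 with at least 1 CPM and to −0.18 without the pools with lens RNA, and the lens median turned to −1.36 without RVO pool 2. The causes were not tested. Genes under about 1 CPM rest on few counts in every pool.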

Other observations

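Further groups of genes were looked at after their values had been seen, so that their counts are descriptions. Over all tested genes 2.7% rose at 0.01 and 17.5% at 0.05. All 11 tested enzymes of serine, glycine, one-carbon and proline synthesis rose at 0.05 and 5 of them at 0.01 (median log2 fold change 0.82). Phgdh, the first enzyme of serine synthesis, was at 23.9, 12.3 and 18.2 CPM in RVO pools 1, 2 and 3 and at 5.46, 5.13 and 3.37 CPM in control pools, a log2 fold change of 1.91. Of 13 genes of the actin cytoskeleton, 11 rose at 0.01, among them the filamins Flnc (71.2, 35.6 and 76.9 CPM against 14.2, 15.2 and 16.1 CPM) and Flna (385, 275 and 376 CPM against 166, 173 and 151 CPM). All 5 subunits of the transcription factor NF-kB rose at 0.05, with Relb at 23.1, 12.4 and 19.4 CPM against 5.46, 6.51 and 7.34 CPM.

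Of 14 genes of synaptic vesicle release, 4 fell at 0.01 and 10 at 0.05, against 0.634% and 17.1% of all tested genes. Snap25, a protein of the fusion machinery in all neurons, was at 603, 1048 and 729 CPM against 1500, 1469 and 1493 CPM. Rims2, of the active zone, was at 85.9, 110 and 80.7 CPM against 180, 158 and 154 CPM. Of the genes found at the ribbon synapses of photoreceptors and bipolar cells, Cplx3 was at 125, 270 and 152 CPM against 425, 432 and 453 CPM (log2 fold change −1.31, edgeR adjusted p = 0.0142), whereas Stx3 and Cplx4 had log2 fold changes of 0.00 and 0.17 and did not pass 0.05.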
